A study of Rattus with 27 samples.

Results

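The comparison described here sets the brain of sham-operated rats against the white blood cells of the same rats, the tissue difference that exists before any stroke. Its members are 6 of the 27 arrays of the series, chosen by their labels: the brain arrays and the white blood cell arrays of sham rats 3, 4 and 5. All 3 rats were Sprague Dawley rats killed at 6 h; the sham operation was anaesthesia and separation of the vessel, with no occlusion and no drug. Whole brain was homogenised and white blood cells were isolated from blood, so each array reports a mixture of cell types, and in such mixtures fewer cells of a type and less RNA per cell cannot be told apart. The other arrays hold the spleens of the same rats and the brain, white blood cells and spleen of 6 rats killed 6 h after occlusion of the middle cerebral artery (MCAO), 3 labelled as model and 3 as vehicle; the protocol lists a vehicle group and a group given 25 mg/kg of the YJ formula, and the labels do not settle which of these the model-labelled rats were. Age and sex were not given in the sources used here.

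As background, the brain is built of neurons, astrocytes, oligodendrocytes, microglia and blood vessels, and its most specialised transcripts serve synaptic release, transmitter receptors, ion channels and myelin. Circulating white cells comprise neutrophils, monocytes, T cells, B cells and natural killer cells, which carry surface receptors, adhesion molecules and granule enzymes of host defence. Platelets, small cell fragments shed by megakaryocytes, carry RNA and often travel with white cells when blood is fractionated. Several gene families have one member used mainly by neurons and a near relative used mainly by blood cells, so the families as well as the cell types can be followed across the tissues.

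The measurement was the log2 signal of an Affymetrix rat gene array, summarised per probe set by RMA. Array medians lay between 4.96 and 5.31 over the 27 arrays, and the table holds no detection calls, so a value near 3 or 4 is at the low end of the scale without showing that a transcript was absent. The arrays of a tissue resembled each other closely over 14506 genes: the white cell arrays correlated at 0.986 to 0.992 and the brain arrays at 0.968 to 0.992, against 0.704 to 0.72 between tissues. The brain array of rat 5 stood apart from the other brains (r = 0.968 and 0.97, against 0.992 between rats 3 and 4), and genes that mark brain regions differed widely in it, as described below. A fit without pairing and without that array was set against the paired fit. The counts of called genes moved by 1 gene in 13 of the 31 gene lists used here and stayed the same in 18. Pairing and array change together there. Against the unpaired fit that kept the array, brain-side calls rose from 7 to 9 for neuropeptide and monoamine genes. They rose from 3 to 5 for thalamic and hypothalamic genes. Losses were seen for neutrophil genes (16 to 15 white cell-side calls), homing receptors (18 to 17) and red cell genes (1 to 0 brain-side calls).

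Brain and white blood cells differed in about as many genes one way as the other. With each rat as its own control (limma, Benjamini-Hochberg adjusted p under 0.05, "called" from here on), 3665 of 14506 genes were higher in brain (25.3%) and 3677 were higher in white blood cells (25.3%). These shares of 25.3% each way are the background for the counts of list members given below. At least 2-fold differences were called for 2385 genes in the brain direction (16.4%) and 1955 in the white cell direction (13.5%). The largest class of differences leaned to brain at 4-fold (1119 against 894 genes), while at 64-fold white cells led (35 against 19). All 3 brain values lay on the same side of all 3 white cell values for 8976 of the 14506 genes, among them 7133 of the 7342 called ones. Aligning the array medians instead moved the split to 3312 genes higher in brain and 5472 higher in white blood cells, that is from 49.9% to 37.7% brain among the called genes, and the median difference of all genes from -0.12 to -0.26. The 3 rats are the replicates. The p-values rest on the spread of the brain minus white cell difference over these 3 animals. That spread was moderated by limma toward its level over all genes (2 residual and 4.278 prior degrees of freedom).

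Of the 12 largest differences toward brain, 2 belonged to the synaptic release list, 2 to the astrocyte list and 1 to the neuronal list. Predicted genes (symbols starting LOC, RGD, Mir or AABR) were left out of this ranking and of the one toward white cells. Snap25, the membrane partner of the vesicle fusion machinery, read 12.13, 12.43 and 11.72 in the brains of rats 3, 4 and 5 and 4.07, 3.76 and 3.98 in their white cells, a difference of 8.16 on the log2 scale (standard error 0.20, 285-fold, adjusted p = 3.035e-06). Vsnl1, the neuronal calcium sensor visinin-like 1, read 11.85, 11.94 and 11.48 against 3.98, 3.70 and 3.46, a difference of 8.04 (standard error 0.14). Both rankings took only genes whose brain and white cell arrays did not overlap. Snap25 and Vsnl1 were as low in the spleen (means 3.56 and 3.26) as in white cells. Sparcl1, a matricellular protein made by astrocytes, differed by 7.39 (12.02, 11.92 and 12.11 against 4.74, 4.56 and 4.57). S100b, the calcium-binding protein of astrocytes, differed by 7.16, with 10.57, 10.82 and 11.14 in brain and 3.82, 3.86 and 3.37 in white cells. Slc1a2, the main astrocytic glutamate transporter, differed by 6.86, and Syt1, the calcium sensor of synaptic vesicles, by 6.79.

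The remaining 6 of the 12 largest brain-side differences were Gpm6a, a neuronal membrane glycoprotein (7.39), Fam107a (7.36), Tspan7, a tetraspanin (7.35), Cpe, the carboxypeptidase that matures neuropeptides (7.07), Rtn1 (6.91) and Scg3, a granin of secretory granules (6.88). Not all of them were low throughout the periphery. Tspan7 averaged 9.59 in the spleens of the same rats against 11.82 in brain and 4.47 in white cells, and Rtn1 averaged 6.84 in spleen against 4.70 in white cells. Fam107a was the most variable of the 12 in brain, at 12.03, 12.21 and 10.47, with the brain of rat 5 lowest.

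Of the 12 largest differences toward white cells, 5 belonged to the platelet list (Gp1ba, Itgb3, F13a1, Pf4 and Rgs18). Cd226, an adhesion receptor of platelets, T cells and natural killer cells, read 11.56, 11.50 and 11.80 in the white cells of rats 3, 4 and 5 and 3.57, 3.37 and 3.33 in their brains, a difference of -8.20 (standard error 0.15, 293-fold, adjusted p = 2.77e-06). Gp1ba, the platelet receptor for von Willebrand factor, read 11.59, 11.76 and 12.03 against 3.76, 3.53 and 3.79, a difference of -8.10 (standard error 0.15). Both genes sat between the tissues in the spleen, at means of 7.96 and 8.06. Ly6c, a surface antigen of myeloid and lymphoid cells, differed by -8.09 (11.27, 11.26 and 10.97 against 2.95, 3.02 and 3.26). Itgb3, the integrin chain of the fibrinogen receptor, differed by -7.67, and Pf4, the platelet chemokine platelet factor 4, by -7.16. F2rl2, a thrombin receptor, Alox12, the platelet lipoxygenase, the coagulation factors F5 and F13a1, the phospholipase Pla2g2a, the signalling regulator Rgs18 and Pdlim1 completed the 12, with differences from -7.04 to -7.96.

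**Figure D1:**
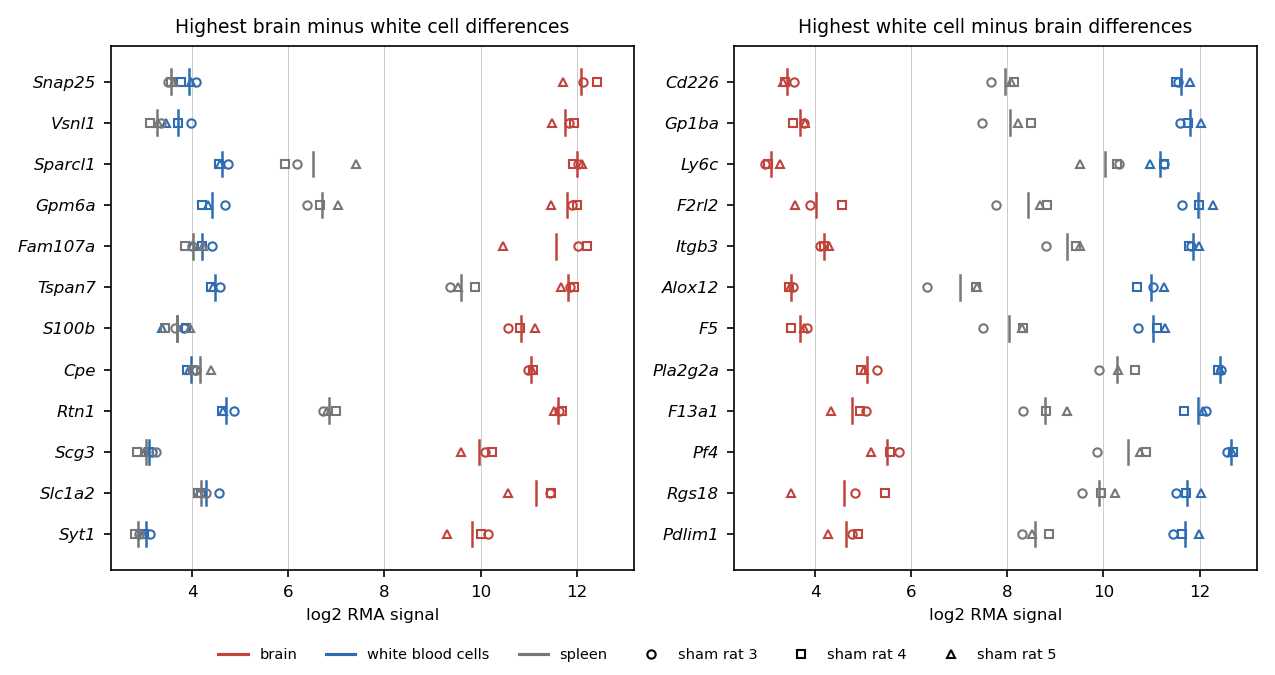
Log2 RMA signal of the 12 genes with the largest called difference toward brain (left) and toward white blood cells (right) in each array of sham rats 3, 4 and 5, with vertical bars at the mean of each tissue. The genes were picked among those whose brain and white cell arrays do not overlap, with predicted genes left out. The spleen of the same rats lies between brain and white cells for the genes on the right. Tspan7 is the brain-side gene highest in spleen (mean 9.59).

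Neurons were represented by 27 measured genes, of which 26 were higher in brain (96.3%, against 25.3% of all genes), with a median difference of 4.25 against -0.12 over all genes. Map2, the microtubule protein of dendrites, read 9.86, 10.00 and 10.09 in brain against 3.61, 3.43 and 3.63 in white cells (difference 6.43, standard error 0.14). Uchl1, a ubiquitin hydrolase abundant in neurons, differed by 5.99, and Nefl, the light neurofilament chain, by 5.76. The mean over the list stayed between 9.06 and 9.15 in the 3 brains, so no brain stood apart on the list mean. Single members varied more. In the brain of rat 5 Nefl was lower (9.83, 9.90 and 9.28 in rats 3, 4 and 5) and Uchl1 higher (10.70, 10.69 and 10.96).

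The exception was Nrgn, neurogranin, the calmodulin-binding protein of dendritic spines, singled out here after its values were seen. It was measured at 12.08, 11.90 and 12.08 in white blood cells and at 11.50, 11.72 and 8.92 in brain. The white cell values were above every brain value, yet the difference of -1.31 (standard error 0.54) was not called (adjusted p = 0.08915), and the brain of rat 5 lay far below the other brains. With that array left out, in a fit without pairing, 26 genes of the list were called higher in brain and 1 higher in white cells. The spleen mean of Nrgn was 8.44.

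In the synaptic release list all 26 measured genes were higher in brain, with a median difference of 3.98. Dnm1, the dynamin of vesicle retrieval, differed by 5.68, and Syp, the vesicle protein synaptophysin, by 5.52. At the other end stood Sv2a, a vesicle glycoprotein, which read 8.77, 8.62 and 9.08 in brain and 7.69, 7.84 and 8.26 in white cells, a difference of 0.89. It was the only member below 2-fold, and is named here for that reason, after its values were seen.

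Receptors for the main transmitters followed the same direction. Of 29 glutamate genes 27 were higher in brain, led by the AMPA receptor subunit Gria2 (9.34, 9.33 and 8.63 against 3.18, 3.23 and 3.08, difference 5.94). Camk2a, the postsynaptic kinase, came next (5.13), with brain values of 11.35, 11.55 and 9.10 in rats 3, 4 and 5. Of 16 GABA genes 15 were higher in brain, led by the receptor subunits Gabra2 (5.81), Gabrg1 (5.63) and Gabra3 (5.57); the remaining subunit, Gabra6, known from cerebellar granule cells, read 3.20 to 3.53 in brain and 3.30 to 3.64 in white cells and was not called. Of 30 ion channel genes 29 were higher in brain, with a median difference of 2.97, led by the sodium channel Scn2a (8.52, 8.65 and 8.63 against 3.30, 2.98 and 3.03; difference 5.50) and the calcium channel subunit Cacna2d1 (4.72). The uncalled members of these lists were Grin2d, Slc17a6, Gabra6 and Kcnj4.

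Neuropeptide and monoamine genes did not follow the other neural lists. Of 24 measured genes 9 were higher in brain (37.5%, against 25.3% of all genes), 4 were higher in white blood cells (16.7%, against 25.3%) and 11 were not called. The list mean was 5.18 and 5.29 in the brains of rats 3 and 4 and 7.10 in that of rat 5; 7 genes were called higher in brain in the unpaired fit or without rat 5, and the median difference of 1.19 became 0.28 with the brain array of rat 5 left out. Sst, the interneuron peptide somatostatin, was the most even, at 9.12, 9.21 and 9.24 in brain against 4.66, 4.55 and 4.75 in white cells (difference 4.54, standard error 0.13). Penk, the enkephalin precursor, differed by 3.29 and Cck, cholecystokinin, by 3.26, each with a wide spread among brains (5.62, 8.25 and 8.73 for Penk, 8.86, 9.22 and 6.28 for Cck).

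The 4 genes that ran the other way are transmitter or peptide genes with a high signal in white cells. Slc6a4, the serotonin transporter, which platelets use to take serotonin up from plasma, read 10.78, 9.88 and 10.86 in white cells and 4.90, 4.72 and 4.79 in brain, a difference of -5.70 (52.1-fold, standard error 0.20). Slc18a2, the vesicular monoamine transporter of neurons and of platelet dense granules, differed by -3.90 (8.46, 8.03 and 8.47 against 3.75, 3.60 and 5.91). Npy, the appetite peptide neuropeptide Y, was well measured in both tissues, at 12.57, 12.88 and 12.89 in white cells and 9.05, 9.44 and 8.67 in brain (difference -3.73). Agrp, another hypothalamic feeding peptide, differed by -2.44. Like Slc6a4 and Slc18a2, platelet genes were higher in white cells than in brain. The mean of the 12 platelet genes was 10.81 to 11.31 in white cell arrays and 4.79 to 5.16 in brain. In spleen that mean was 8.12 to 8.77, while Slc6a4 averaged 6.21 and Slc18a2 4.33, against 4.80 and 4.42 in brain. The part of platelets in the transporter values was not tested.

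Genes that mark the cortex and those that mark the thalamus and hypothalamus separated the brain of rat 5 from the others, while striatal genes did not (list means 5.36, 6.06 and 5.75 in rats 3, 4 and 5). Some broader neural lists were also lower in the brain of rat 5. Synaptic release averaged 9.42, 9.40 and 8.70 in rats 3, 4 and 5, and glutamate genes 7.48, 7.52 and 6.83. Ion channels averaged 7.25, 7.24 and 6.75, and neural transcription factors 6.23, 6.24 and 5.67. The GABA list (7.72, 7.85 and 7.98) and the astrocyte list (9.35, 9.46 and 9.62) were not lower there. Slc17a7, the vesicular glutamate transporter of cortical neurons, read 11.01, 11.12 and 5.10 in the brains of rats 3, 4 and 5, and Neurod6, a transcription factor of the same neurons, read 8.11, 8.26 and 4.43. The mean of the 7 cortical genes was 8.22 and 8.38 in rats 3 and 4 and 5.75 in rat 5, while white cells ranged from 4.47 to 4.81. The 13 thalamic and hypothalamic genes ran the opposite way, with means of 5.14, 5.03 and 7.77. Pmch, the precursor of melanin-concentrating hormone of the lateral hypothalamus, read 3.37, 3.55 and 11.34. That was the widest range in the brains with predicted genes left out. Cga, the common chain of the pituitary glycoprotein hormones, read 4.61, 4.44 and 9.86, and Slc17a6, the vesicular glutamate transporter of the thalamus, 4.61, 4.64 and 8.96.

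These values limit what can be called for single regional genes. Of the 7 cortical genes 6 were higher in brain, and all 7 were with the brain array of rat 5 left out in a fit without pairing. Of the thalamic and hypothalamic genes 4 of 13 were higher in brain (30.8%, near the 25.3% of all genes), or 3 in the unpaired fit and 5 with the brain array of rat 5 also left out. The median difference of 1.27 became 0.14 without that array. There were 2 higher in white cells (Agrp and Prkcd, a protein kinase C of thalamic neurons that is also used by leukocytes, -2.37). Pmch, with a difference of 2.64 and a standard error of 1.49, was not called (adjusted p = 0.1829). Of 11 striatal genes 7 were higher in brain (63.6%, against 25.3% of all genes) and 1 was higher in white cells (9.1%). Penk led on the brain side, with Pde10a, a phosphodiesterase of striatal neurons (1.98), and Tac1, the substance P precursor (1.77). Adora2a, an adenosine receptor of striatal neurons and leukocytes, was the gene higher in white cells (-1.70). Avp, vasopressin, was called (2.37, adjusted p = 0.04281) on brain values of 6.42, 4.88 and 9.70, and lost the call in the fit without pairing (adjusted p = 0.06871). Over all genes measured, 160 ranged over at least 4-fold among the 3 brains and 13 among the white cell arrays, although the median standard deviation was alike (0.17 in both). The labels describe whole brain homogenate, and how much of each region entered each sample was not tested.

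**Figure D2:**
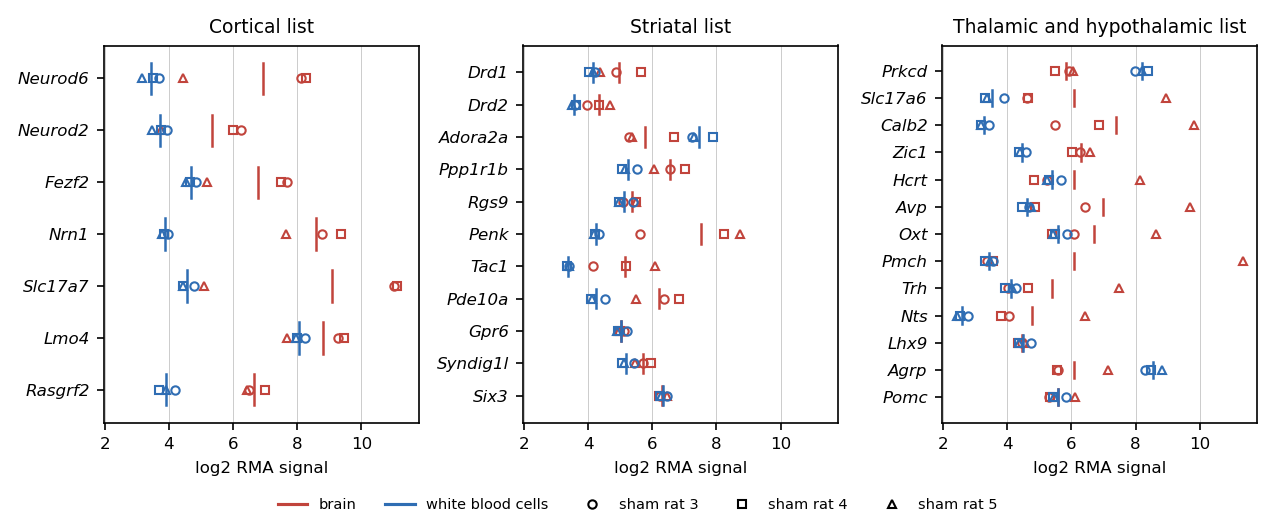
Log2 RMA signal of the measured genes of 3 regional lists in the brain and white blood cell arrays of sham rats 3, 4 and 5, with bars at the means. The brain of rat 5 lies near white cells for Slc17a7 (5.10) and Neurod6 (4.43), and far above the other brains for Pmch (11.34).

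Astrocyte genes were mostly higher in brain, with 19 of 20 higher in brain and a median difference of 4.82. Slc1a3, the second astrocytic glutamate transporter, read 9.94, 10.08 and 9.88 in brain against 4.11, 4.12 and 4.21 in white cells (difference 5.82, standard error 0.14). Aqp4, the water channel of astrocyte endfeet, differed by 5.68. The list mean was 9.35 to 9.62 in the 3 brains and 5.12 to 5.31 in white cells. Clu, clusterin, a secreted chaperone, was the exception and was high in both tissues, at 11.43, 11.28 and 11.32 in brain and 11.72, 11.75 and 11.89 in white cells (difference -0.44, adjusted p = 0.03405); quantile normalization ended that call (-0.12, adjusted p = 0.4336).

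Myelin genes were higher in brain for 16 of 19 members, with a median difference of 2.90. Mobp, a structural myelin protein, read 9.59, 9.12 and 10.03 against 3.99, 3.83 and 3.89 (difference 5.68), Ermn differed by 5.15, and Cldn11, the claudin of the myelin sheath, by 4.67. Gsn, the actin-severing protein gelsolin, ran the other way, at 10.47, 10.24 and 10.52 in white cells and 7.36, 6.62 and 7.63 in brain (-3.21). Mbp, myelin basic protein, depended on the probe set. The probe set with the higher mean over the series gave -1.55, higher in white cells, while the other gave 5.82, higher in brain, and their average gave 2.13; Mbp was the only gene among 527 with several probe sets whose probe sets were at least 2-fold apart in opposite directions.

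Microglia, the macrophages of the brain, share many genes with blood monocytes. Of the 16 measured, 6 were higher in brain (37.5%), 4 were higher in white cells (25.0%, against 25.3% of all genes) and 6 were not called (median difference 0.22). The complement genes were on the brain side: C1qa read 6.46, 6.61 and 6.98 against 4.60, 4.04 and 4.62 (2.26), and C1qc differed by 1.89. Gpr34 (2.01) and Sall1 (1.70) were also called higher in brain. The ADP receptor P2ry12, often used as a microglial marker and also the platelet receptor targeted by clopidogrel, read 10.77, 11.04 and 11.36 in white cells and 7.81, 8.34 and 8.31 in brain (-2.90). Csf1r, the receptor for macrophage growth factors, differed by -2.40, Cx3cr1, the fractalkine receptor, by -1.47 and Aif1, the calcium-binding protein Iba1, by -1.18. Tmem119 and Trem2 were not called, with differences of 0.23 and 0.00. All 3 complement genes were far higher in spleen, where C1qa averaged 9.77.

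Of 17 endothelial genes 11 were higher in brain (64.7%) and 4 were higher in white cells (23.5%), against 25.3% of all genes each way. Transporters of the blood-brain barrier were on the brain side: Slco1a4, an organic anion transporter, read 6.44, 7.05 and 6.74 against 3.28, 3.14 and 3.03 (3.59), Slco1c1, a thyroid hormone transporter, differed by 3.30, Mfsd2a, the lipid transporter, by 2.13 and Abcb1a, the drug efflux pump, by 2.02. The adhesion molecules Pecam1 (-2.80) and Esam (-2.07), which platelets and leukocytes also carry, and the receptors Tie1 (-0.99) and Kdr (-0.72) were on the white cell side. Markers of the choroid plexus, the tissue that makes cerebrospinal fluid, were nearly flat. Of 12 genes 1 was higher in brain (8.3%) and 2 were higher in white cells (16.7%), both below the 25.3% of all genes. The brain-side gene was Enpp2, also expressed by oligodendrocytes (4.43), and Aqp1 (-1.33) and Folr1 (-0.48) were higher in white cells. Ttr, transthyretin, read 4.68, 4.55 and 4.79 in brain and 5.11, 4.85 and 4.48 in white cells.

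Transcription factors of neural cells were higher in brain for 19 of 24 members (79.2%) and higher in white cells for none. Their median difference was 1.08. Olig1, a factor of the oligodendrocyte lineage, read 7.96 to 8.28 against 3.70 to 4.14 (4.12), Neurod6 differed by 3.48 and Myt1l, a neuronal repressor of other fates, by 2.93. Differences were smaller than those of the neuronal and synaptic lists as described by their medians.

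**Figure D3:**
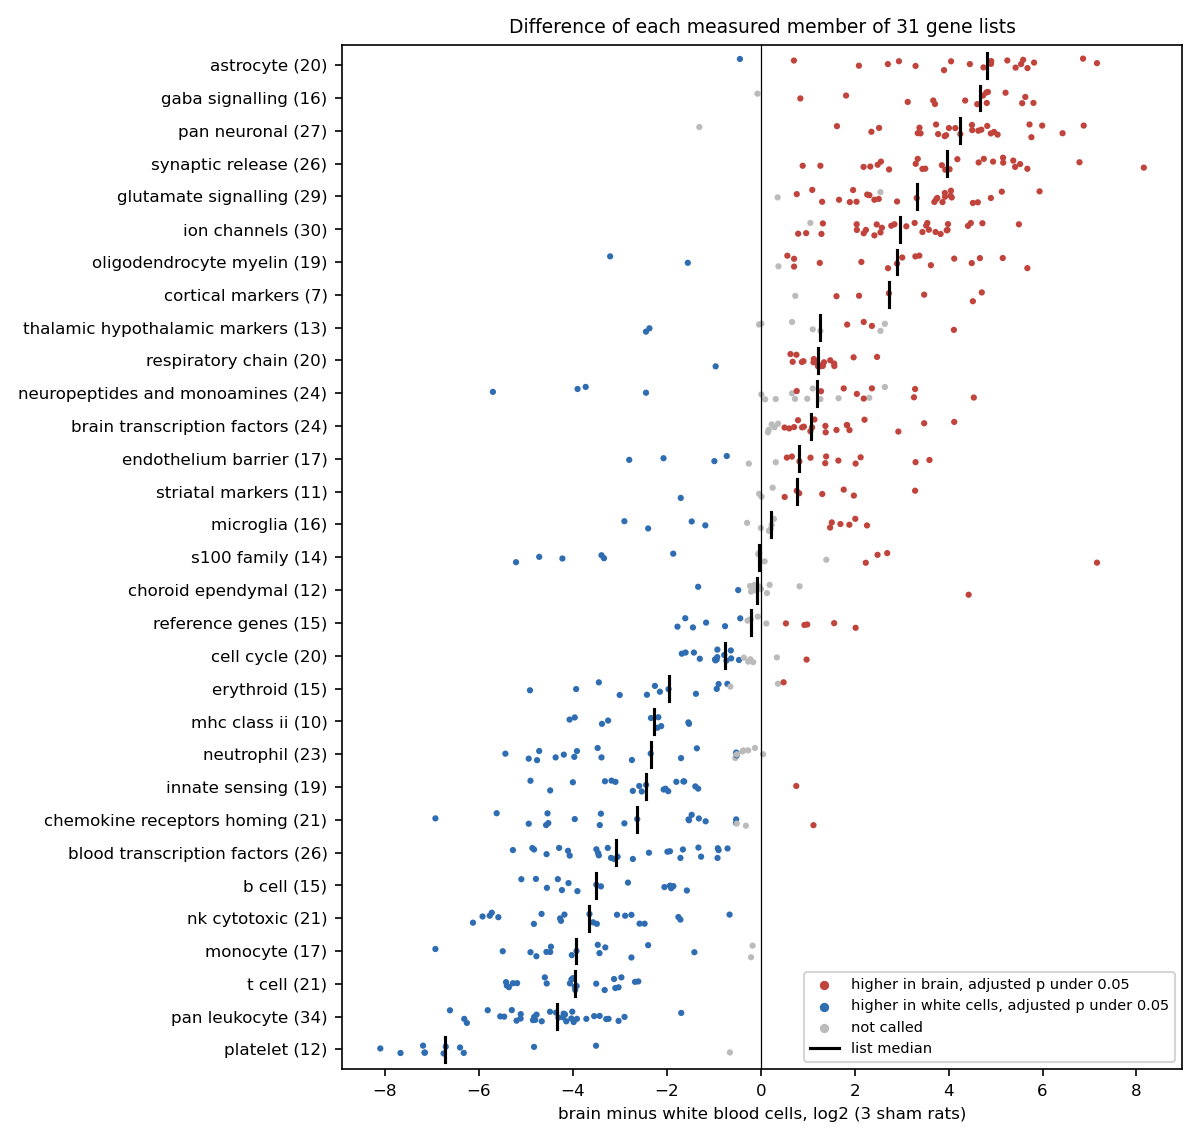
Brain minus white blood cell difference on the log2 scale for each measured member of 31 gene lists, with the list median as a black bar and the number of members in brackets. Medians run from 4.82 for astrocytes to -6.73 for platelets, and the peptide, microglial, endothelial and S100 lists have called members on both sides of 0.

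Genes shared by all leukocytes were higher in white cells without exception, 34 of 34 (background 25.3%), with a median difference of -4.33. Ptprc, the common leukocyte phosphatase CD45, read 10.80, 10.99 and 10.77 in white cells and 4.73, 4.30 and 4.76 in brain (-6.26, standard error 0.18). Fyb1, an adaptor of T cell and platelet signalling, differed by -6.62, Cytip, a regulator of leukocyte adhesion, by -6.31 and Plek, pleckstrin, by -5.81. The mean of the list was 5.30 to 5.31 in the 3 brains, against 9.68 to 9.88 in white cells and 9.02 to 9.30 in the spleen.

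Lymphocyte lists were equally uniform. All 21 T cell genes were higher in white cells (median -3.96), led by the receptor chain Cd3g (8.57, 9.03 and 8.51 against 3.54, 3.18 and 3.12; -5.42), the coreceptor Cd8a (-5.41), Cd27 (-5.36) and the transcription factor Tcf7 (-5.28). All 15 B cell genes were higher in white cells (median -3.50), led by Ms4a1, the CD20 antigen (8.63, 8.21 and 7.80 against 2.95, 3.17 and 3.23; -5.10), the IgM receptor Fcmr (-4.79) and the kinase Btk (-4.55). All 21 natural killer and cytotoxic genes were higher in white cells (median -3.65), led by the receptor Klrk1 (-6.13), the pore-forming Prf1 (-5.92), Nkg7 (-5.77) and the chemokine Ccl5 (-5.73). Within white cells the T cell list mean was 8.22 to 8.84 and the cytotoxic list mean 7.41 to 8.12. Brain means of the same lists were 4.38 to 4.56 and 3.94 to 4.12.

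Myeloid genes were higher in white cells for most but not all members. Of 17 monocyte genes 15 were higher in white cells, led by the chemokine receptor Ccr2, at 12.24, 11.76 and 11.88 against 5.01, 4.84 and 5.25 (-6.93), the lysosomal protein Cd68 (-5.49) and the beta-glucan receptor Clec7a (-4.90). Of 23 neutrophil genes 16 were higher in white cells (69.6%, against 25.3% of all genes). They included the oxidase chain Cybb (10.56, 10.29 and 10.17 against 5.38, 4.51 and 4.82; -5.44), the receptors Cxcr2 (-4.94) and Trem1 (-4.76), and the alarmin S100a8 (-4.72).

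The 7 uncalled neutrophil genes, named here after their values were seen, were Lcn2, Ngp, Camp, Ltf, Mpo, Fpr1 and Padi4, among them the granule proteins Lcn2, Ngp, Camp, Ltf and Mpo, made during maturation in the marrow. Mpo, myeloperoxidase, read 4.48, 4.22 and 4.16 in white cells and 4.24, 4.06 and 4.19 in brain, and Lcn2, lipocalin 2, read 5.31, 4.76 and 5.04 against 5.38, 4.77 and 5.11. In the spleens of the same rats Mpo averaged 8.09 and Lcn2 9.44. For these 7 genes the differences ran from -0.54 to 0.05, while the receptors and oxidase chain named above were far apart.

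Genes of antigen presentation by MHC class II were higher in white cells for all 10 members (median -2.27), led by RT1-Da (9.50, 9.69 and 9.52 against 5.81, 5.21 and 5.48; -4.07) and the invariant chain Cd74 (-3.96). Near-identical class II genes can share probes, so single members are less certain than the list. Receptors that guide leukocytes through tissues were higher in white cells for 18 of 21 members, including the complement receptor C5ar1 (-4.57) and the integrin chain Itga4 (-5.62). Ackr3, a chemokine scavenging receptor found on vessels and neurons, was the only member higher in brain (1.12). Sensors of microbes and of injury were higher in white cells for 18 of 19 members, led by Clec7a, Cd14, the endotoxin coreceptor (-4.48), and the inflammatory protease Casp1; Tlr3, the receptor for double-stranded RNA, was higher in brain (0.76, adjusted p = 0.04375), a call that quantile normalization ended (adjusted p = 0.05112).

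All 26 transcription factors of blood cells were higher in white cells, with a median difference of -3.09. Tcf7 led, followed by Ikzf1, a regulator of lymphoid development (9.55, 9.91 and 9.53 against 4.84, 4.91 and 4.65; -4.86), Nfe2, the megakaryocyte and erythroid factor (-4.83), and Ikzf3 (-4.56). No brain value of Ikzf1 reached above 4.91.

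Platelet genes had the most negative median of the 31 lists, -6.73, with 11 of 12 higher in white cells. Besides Gp1ba, Itgb3, F13a1 and Pf4, the receptor subunits Gp9 (-6.75) and Gp5 (-6.40), the chemokine Ppbp (-6.71) and the ATP receptor P2rx1 (-6.32) were among them, given here as further members of the list. Gucy1b1, a subunit of the nitric oxide receptor, differed by -0.66 and was not called. It read 9.27, 9.36 and 8.79 in brain and 9.33, 9.62 and 10.44 in white cells, with the tissues furthest apart in rat 5. The list mean was 10.81 to 11.31 in the arrays labelled white blood cells, 8.12 to 8.77 in spleen and 4.79 to 5.16 in brain. None of the 12 platelet genes was at the low end of the scale in white cells. The labels name white blood cells only, and how many platelets the separated fraction held was not tested.

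Red cell genes were higher in white cells for 12 of 15 members (80.0%, against 25.3% of all genes), with a median of -1.96. Rhag, a Rhesus blood group glycoprotein, read 7.94, 8.34 and 8.55 against 3.26, 3.56 and 3.27 (-4.91), and the anion exchanger Slc4a1 differed by -3.93. Haemoglobin RNA was also measured in brain: Hbb read 11.58, 11.68 and 11.87 in brain, 12.39, 12.36 and 12.51 in white cells and 13.12 on average in spleen, so the difference was only -0.71. Over the whole list the mean was 5.88 to 6.18 in brain, 7.66 to 8.29 in white cells and 9.70 to 10.37 in spleen. The lymphocyte and platelet lists lay at 3.94 to 5.16 in the same brain arrays. Ank1 was the 1 member higher in brain (0.49); its white cell value in rat 5 equalled its brain value in rat 3, and its call was lost in the unpaired fit to all 27 arrays (adjusted p = 0.3881).

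Cell cycle genes were higher in white cells for 14 of 20 members (70.0%, against 25.3% of all genes). The differences were small, with a median of -0.75. Rrm2, a subunit of ribonucleotide reductase, read 6.05, 6.10 and 6.15 against 4.45, 4.34 and 4.47 (-1.68), and the replication helicase subunits Mcm6 and Mcm5 differed by -1.60 and -1.42. Their list mean was 4.94 to 5.02 in white cells, 4.24 to 4.34 in brain and 7.44 to 7.78 in spleen. Tyms, thymidylate synthase, was higher in brain (0.98, adjusted p = 0.0401), a call lost under quantile normalization (adjusted p = 0.06454).

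The S100 family of small calcium-binding proteins had called members on both sides, with 4 of 14 measured genes higher in brain (28.6%) and 6 higher in white cells (42.9%), against 25.3% of all genes each way. On the brain side S100b (7.16) was joined by S100a1 (8.43, 8.58 and 9.08 against 6.03, 5.94 and 6.04; 2.69), S100a13 (2.49) and S100a16 (2.24). On the white cell side S100a4 differed most (-5.21), with 9.68, 9.09 and 9.34 against 4.43, 4.04 and 4.01. S100a8, S100a11 (-4.22), S100a9 (-3.39), S100a6 (-3.34) and S100a10 (-1.86) followed. Other probe sets of S100a11 gave -2.18, -0.53 and -0.27, the same direction by less. S100a5, known from olfactory tissue, stood above the low end of the scale in a single brain and was not called. It read 3.23, 7.46 and 3.20 in the brains of rats 3, 4 and 5 and 3.14 to 3.41 in white cells. S100a3, S100a7a and S100g read within 0.10 of each other in the tissue means, and the sign of each turned under another scaling or with a rat left out.

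Related genes were often divided in the same way. Of 30 pairs with both members measured, 17 had the first member higher in brain and the second higher in white cells, and none had the reverse. Among the 17 is the pair Apbb1 and Apbb1ip, a gene and its interaction partner rather than members of a family. Of the first members 22 were higher in brain, and 24 second members were higher in white cells, against 25.3% of all genes each way. The first member was picked as neural and the second as leukocyte, with earlier results of these data known. These counts therefore describe the chosen pairs and do not test the division. The fusion proteins Snap25 and Snap23 differed by 8.16 and -2.99, and the other probe set of Snap23 gave -0.98. The vesicle GTPases Rab3a and Rab27a differed by 4.95 and -3.07, and the priming factors Unc13a and Unc13d by 2.19 and -4.46. Metabolic enzymes showed the split too: glycogen phosphorylase Pygb read 8.92 to 9.26 in brain against 6.40 to 6.59 (2.59), while Pygl read 4.65, 4.61 and 5.05 against 8.87, 9.25 and 9.75 (-4.52). The membrane skeleton genes Epb41l3 and Epb41 differed by 3.53 and -3.97, and the integrin chains Itgb8 and Itgb2 by 3.97 and -5.55.

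The 13 other pairs show where the division failed. In 5 of them the first member was itself higher in white cells: the kinase Fyn (-0.96), the phosphatases Ptpn11 (-0.95) and Inppl1 (-0.65), the exchange factor Vav2 (-1.14) and the lipid kinase Pik3cb (-0.48), each beside a partner with a larger difference the same way (Lck, Ptpn6, Inpp5d, Vav1 and Pik3cd, from -3.29 to -4.60). In others the second member was not called: Aldoa and Eno1, the widespread aldolase and enolase, differed by -0.12 and 0.04 beside Aldoc (4.90) and Eno2 (5.04), with signs that turned under other scalings. Stmn1, a tubulin-binding protein of dividing cells and neurons, was higher in brain (3.49) together with Stmn2 (5.72). Rasgrp1, an activator of Ras in T cells and neurons, read 9.87, 9.70 and 7.47 in brain and 8.83, 9.05 and 8.65 in white cells and was not called.

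**Figure D4:**
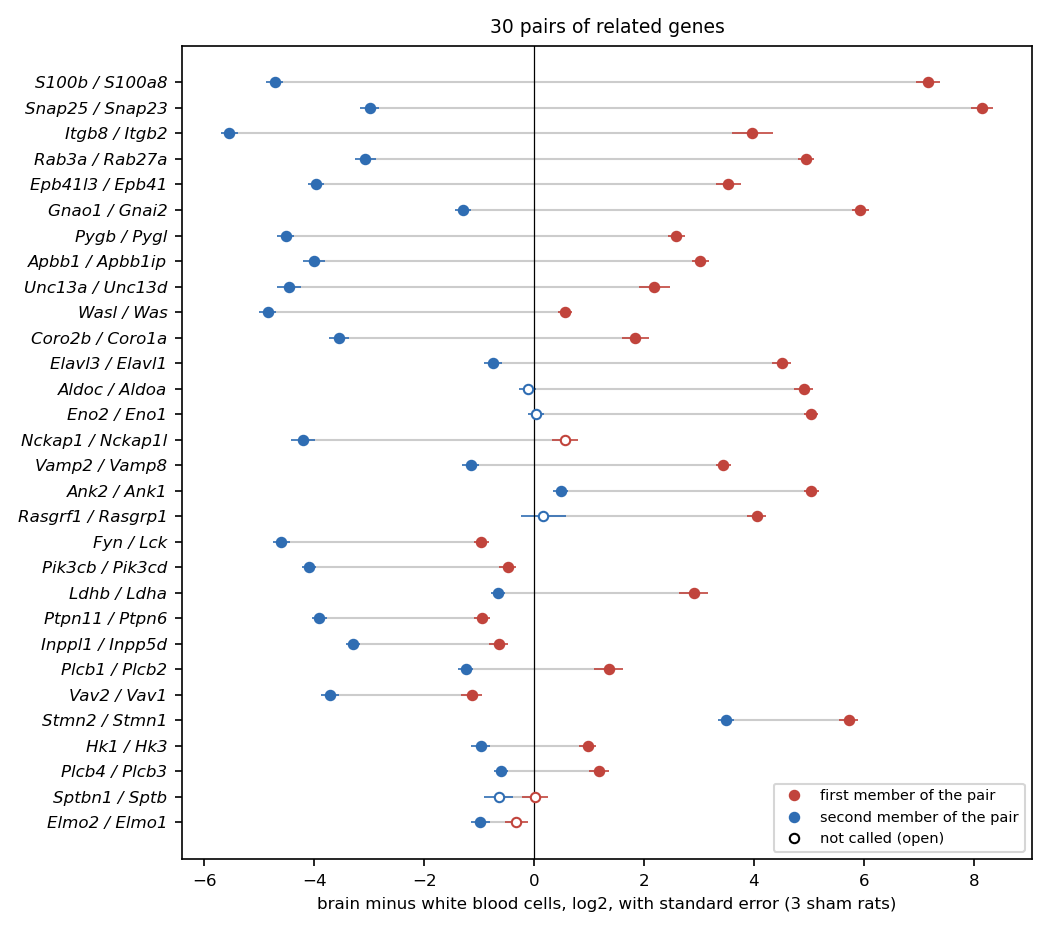
Brain minus white blood cell difference on the log2 scale, with its standard error over 3 sham rats, for both members of 30 chosen gene pairs. The pairs are of related genes, except that Apbb1ip is an interaction partner of Apbb1. Open points were not called. In 17 pairs the members lie on opposite sides of 0 with both called, among them Snap25 at 8.16 and Snap23 at -2.99.

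Respiratory chain genes were higher in brain for 19 of 20 measured members, 14 of them at least 2-fold, with a median of 1.22 and differences from -0.96 to 2.48. Cycs, cytochrome c, read 9.63, 10.07 and 9.93 against 7.24, 7.39 and 7.57 (2.48), and the complex I subunits Ndufs1 and Ndufb5 differed by 1.98 and 1.57. Cox5a, a subunit of cytochrome oxidase, ran the other way (9.53, 9.69 and 9.68 in brain, 10.65, 10.32 and 10.81 in white cells; -0.96), and both of its probe sets gave that direction (-0.96 and -0.92).

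Of 15 measured genes commonly used as references, 5 were higher in brain (33.3%) and 6 were higher in white cells (40%), against 25.3% of all genes each way, and 4 were not called. Tfrc, the transferrin receptor, read 7.21, 7.31 and 7.42 in brain against 5.17, 5.32 and 5.39 (2.02), and Sdha, a subunit of complex II, differed by 1.56, Hprt1 by 0.99, Ppia by 0.93 and Hsp90ab1 by 0.54. On the white cell side were Gusb (-1.77), B2m, the light chain of MHC class I (-1.61), the ribosomal Rplp0 (-1.44), Actb, cytoplasmic actin (-1.16), Ywhaz (-0.76) and Gapdh (-0.44), of which Gapdh turned sign under quantile normalization (0.18, adjusted p = 0.2435) and Ywhaz was no longer called (adjusted p = 0.05206). Actb read 11.91, 11.83 and 11.72 in brain and 12.97, 12.99 and 12.99 in white cells, so its tissue groups did not overlap.

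The uncalled reference genes had 95% intervals of differing width. Tbp, the TATA-binding protein, differed by 0.12 (-0.22 to 0.46), Pgk1 by -0.06 (-0.41 to 0.28), Rpl13a by -0.21 (-0.57 to 0.14) and Eef1a1, whose tissue groups did not overlap, by -0.28 (-0.62 to 0.06), and the sign of each turned under quantile normalization or median centring. With predicted genes left out, 2404 genes had a 95% interval lying within 0.5 of 0 on either side. The narrowest 6 were Ap5s1, Cyp2t1, Smpx, Taar1, 2810025M15Rikl and Msl3l2, with differences from -0.15 to 0.13 and each interval within -0.46 to 0.44. Several of these, such as Smpx and Taar1, were at the low end of the scale in both tissues (2.97 to 3.28), where a level difference cannot be separated from no signal.

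Predicted genes were left out of the rankings of ranges that follow. Among the white cell arrays the widest ranges belonged to Ceacam1 and Xk. Ceacam1, a cell adhesion molecule, read 8.75, 7.09 and 10.74 in rats 3, 4 and 5. Xk, a red cell membrane transporter, read 5.75, 8.70 and 9.26. Ceacam1 was still higher in white cells than in brain in each rat (-4.95, adjusted p = 0.0009381), with brain values from 3.76 to 4.02. Ifit1, an interferon-induced gene, read 3.30, 6.07 and 6.26, so the white cells of rat 3 were at the level of brain (3.35 to 3.98), and its call (-1.55, adjusted p = 0.03297) was lost without pairing (adjusted p = 0.08227). Ramp3 (6.76, 5.97 and 8.70), Mrc1 (7.41, 4.64 and 5.66) and Alb (3.95, 6.74 and 5.08) completed the 6 widest, and none of them was called. The 6 widest ranges in brain belonged to Pmch, Slc17a7, Cga, Cartpt, a hypothalamic satiety peptide (4.09, 5.59 and 9.31), Avp and Kcnj16, a potassium channel (4.10, 5.28 and 8.73), and in each the brain of rat 5 was at an extreme.

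The same tissue difference was measured in 6 rats that did not enter the sham comparison, the MCAO rats. Model-labelled and vehicle-labelled rats were pooled here and in the test of operation below. A difference in treatment within this group was not tested. There 4560 genes were higher in brain (31.4%) and 4298 higher in white blood cells (29.6%). Of the 7342 genes called in sham rats 7257 (98.8%) had the same sign in MCAO rats, and 6839 (93.2%) were called there with that sign. Of the 4340 called at 2-fold or more 4326 kept their sign. Snap25 differed by 8.39 in MCAO rats against 8.16 in sham rats, Gp1ba by -7.89 against -8.10, Slc6a4 by -5.82 against -5.70 and Npy by -3.82 against -3.73.

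For several regional genes that set the brain of sham rat 5 apart the means differed more. Pmch differed by 0.28 in MCAO rats against 2.64 in sham rats, Avp by 0.91 against 2.37 and Cartpt by 0.75 against 2.31, while Slc17a7 differed by 5.75 against 4.52. None of these passed the test of the difference between operations. Red cell genes had a median difference of -3.26 in MCAO rats against -1.96 in sham rats, and no member passed that test either.

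The test of that difference, an interaction of tissue and operation over 18 arrays with each rat as a block, called 13 genes (0.0896% of 14506), 2 with a higher brain minus white cell difference in sham rats and 11 with a lower one; 6 of the 13 had opposite signs in the operations. At an unadjusted p under 0.05 there were 1498. Ccl2, the chemokine that attracts monocytes, was higher in white cells in sham rats (7.05, 6.66 and 7.10 against 4.51, 5.50 and 5.26 in brain; -1.85) and higher in brain in MCAO rats (1.99), with an interaction of -3.84 (standard error 0.57, adjusted p = 0.04177). Nr4a1, an immediate early gene, read 7.43, 7.40 and 5.11 in sham brain and 8.76, 9.15 and 8.30 in sham white cells, with the brain of rat 5 lowest; it differed by -2.09 in sham rats, by -1.54 without rat 5, and by 1.24 in MCAO rats. Gadd45b, a stress-induced gene, differed by -0.64 and 1.27. For these 3 genes the MCAO brains carried the higher level: Ccl2 averaged 8.54 ± 1.08 (SD, n = 6) in MCAO brain and 5.09 ± 0.52 (SD, n = 3) in sham brain, while white cells averaged 6.55 and 6.94.

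Slco1a4, the barrier transporter, had the largest change the other way, from 3.59 in sham rats to 1.90 in MCAO rats, with 4.89 ± 0.49 (SD, n = 6) in MCAO brain against 6.74 ± 0.31 (SD, n = 3) in sham brain. Lgals9, galectin 9, moved from -2.51 to -3.79, and its other probe set gave -0.97 in sham rats. Errfi1, a feedback inhibitor of the EGF receptor, and Sgk1, a kinase induced by glucocorticoids, were higher in brain in both, by 1.60 and 1.21 in sham rats and by 3.30 and 2.48 in MCAO rats, and Icam1, an adhesion molecule of inflamed endothelium and leukocytes, was higher in white cells in both, by -1.86 and -0.53. These calls rest on all 3 sham rats: without sham rat 3 the test called 2 genes, and without rat 4 or rat 5 it called 0.

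**Figure D5:**
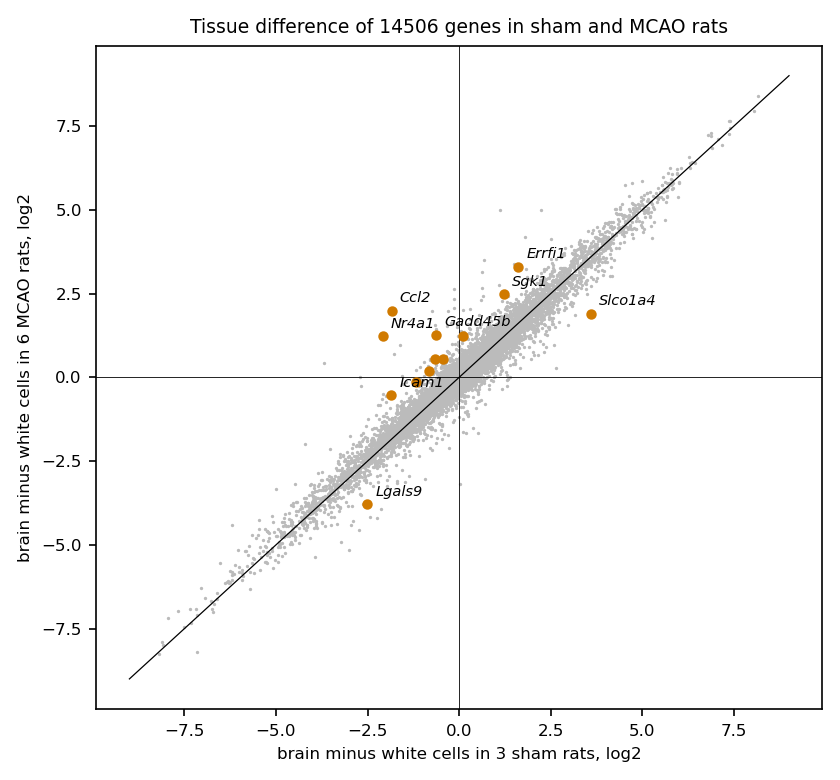
Brain minus white blood cell difference on the log2 scale in 3 sham rats (horizontal axis) and 6 MCAO rats (vertical axis) for 14506 genes in grey, with the 13 genes called for the interaction of tissue and operation in orange and the line of equality. Most genes lie along the line; Ccl2 lies at -1.85 in sham rats and 1.99 in MCAO rats.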

How the data were processed

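The authors deposited a table of log2 expression values for 27 arrays, made with RMA per the submitters' processing notes; its version, and whether tissues were normalized together, are not given in the sources used here. Of 27596 probe sets, 15310 had 1 listed symbol, 323 several and 11963 none listed; the probe set with the highest mean over all arrays stood for each of 14506 genes. Brain minus white cell differences were fitted with limma 3.58.1 (R 4.3.3), rat as block, since the design text takes the tissues from each rat; residuals of same-rat arrays correlated at 0.156, -0.021 and 0.071. P-values were Benjamini-Hochberg adjusted over all genes, called under 0.05. The code was tested on simulated data.

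The gene lists and pairs were chosen with earlier results of these data known. Named genes follow a rule: the 12 largest called differences each way, up to 4 called members per list and 3 the other way, all reference and S100 genes and pairs, the 6 widest ranges per tissue, the 6 largest interactions each way and the 6 narrowest intervals. The 12 each way were taken among genes whose brain and white cell arrays did not overlap. Predicted genes were left out of the 12, the ranges, the interactions and the intervals. A gene outside this rule (uncalled members, further members, contrasts within a list) was picked after its values were seen. Alternatives covered the block, arrays, scaling, filter, probe choice, prior, threshold and each rat left out. The planned description of promoter sequences was not run, and no sequence is used here.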

Additional observations from a re-analysis of the deposited data

Results flagged for a closer look

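The brain minus white cell difference differed between sham and MCAO rats for 13 genes by the interaction test (limma, adjusted p under 0.05). Only 6 of the 13 were also called with no replicate block, 2 without sham rat 3 and 0 without sham rat 4 or sham rat 5. The value given is the sham difference minus the MCAO difference on the log2 scale. It was negative, so that brain stood relatively higher in MCAO rats, for Ccl2 (-3.84), Nr4a1 (-3.33), Gadd45b (-1.91), Errfi1 (-1.70), Icam1 (-1.33), Sgk1 (-1.27), the adhesion receptor Pvr (-1.21), the clock factor Bhlhe40 (-1.15), Rassf1 (-1.03), the acute-phase factor Cebpd (-1.01) and the inositol kinase Itpkc (-0.98). It was positive for Slco1a4 (1.70) and Lgals9 (1.28). Adjusted p-values ran from 0.00954 for Pvr to 0.04853 for Nr4a1, Cebpd and Itpkc.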

How the results depend on the processing

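With no replicate block, 3704 genes were higher in brain and 3711 in white blood cells, so the paired and unpaired counts were alike, and 7133 of the 7342 paired calls were shared with the same sign. Requiring more than 2-fold in the test itself (limma's treat) left 1485 and 1234 genes. The other planned settings stayed within 1.5 times both main counts. Leaving out each rat gave 2680 to 3312 genes higher in brain and 2503 to 3287 higher in white cells. The interaction of tissue and operation gave 16 genes with no replicate block, of which 6 were among the 13, 9 with quantile normalization and 8 with a trended and robust prior; without a sham rat it gave 0 to 2. In the fit without pairing that left out the brain of rat 5, added after seeing the data, 3745 and 3638 genes were called.

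Some differences turned sign. With the mean of all probes Mbp became 2.13. Quantile normalization gave Gapdh 0.18, Eef1a1 0.23, Rpl13a 0.13, Pgk1 0.028, S100g 0.016, Aldoa 0.21, Smpx 0.032 and Taar1 0.023, and a median of the reference list of 0.13. Median centring gave Tbp -0.02, S100a3 -0.057, Eno1 -0.10, Sptbn1 -0.12 and Msl3l2 -0.01. With each rat left out in turn the difference ran from -0.06 to 2.19 for S100a5, from -0.19 to 0.08 for S100g, from -0.12 to 0.07 for S100a7a, from -0.215 to 0.03 for Aldoa and from -0.02 to 0.145 for Eno1. It ran from -0.31 to 0.28 for Sptbn1, from -0.265 to 0.845 for Rasgrp1, from -0.97 to 0.16 for Mrc1 and from -0.165 to 0.0625 for the choroid median. S100a7a became 0.11 without the brain of rat 5, and the choroid median 0.0033 over genes above the 40th percentile. Except for Mbp and Gapdh the genes that turned were not called, and the causes were not tested. Of the 221 called genes that the naming rule picked, 219 stayed called with the same sign with no replicate block, 217 under median centring, 212 under quantile normalization and under the trended robust prior, 201 to 213 without 1 rat, 205 at an adjusted p under 0.01 and 176 under treat. The number of arrays, 3 per tissue, limits the precision.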
